A study of Mus musculus with 30 samples.

Results

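The genes described are 10 markers and regulators of naive pluripotency in mouse embryonic stem cells (ESCs): Nanog, Esrrb, Klf2, Klf4, Klf5, Tbx3, Tcl1, Zfp42, Tcfcp2l1 and Nr0b1. Every row of the array table whose gene symbol equals one of these names was taken, on all 30 arrays. This found 9 of the 10 genes with 13 of 25697 probes (9 of 18097 gene symbols). No row had the symbol Tcfcp2l1, which was not analysed here. The Nr0b1 probe was detected on 0 of 30 arrays, so 12 probes of 8 genes were tested.

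The arrays compared 5 rescue clones of Ainv15, a mouse ESC line that expresses the reverse tetracycline transactivator (rtTA). In Bub1b_R, Chek1_R, Ppm1g_R and Ppp2r1b_R, an shRNA lowers the endogenous mRNA of the named gene, while doxycycline (Dox, at 1 μg/ml) induces a rescue copy of it that escapes the shRNA. Ctrl_R is the control clone, and its samples went through the same Dox schedule. Each clone was taken on Dox and 5 days after its withdrawal, with 3 arrays per condition. The labels do not say whether those 3 arrays come from 1 derived clone of a gene or from several. All clones carry rtTA and were grown in medium with serum and LIF. The labels name primary mouse embryonic fibroblast feeders for maintenance, and the paper describes the cultures used for the arrays as free of feeders. Nothing in the labels says that the 3 samples of a condition came from separate cultures, so the p-values measure the spread between these samples, which may be technical.

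Naive pluripotency is the ground state of the preimplantation epiblast, in which a network of transcription factors holds ESCs in self-renewal. LIF acts through STAT3 to sustain Klf4 and, together with PI3K signalling, Tbx3, while Esrrb, Klf2 and Nanog form an interlocking core that is shut down as cells move to the formative and primed states. Tcl1 is not itself a transcription factor. It binds the kinase AKT and raises its activity, and is a widely used marker of undifferentiated mouse ESCs. Zfp42 encodes the zinc finger protein REX1, whose loss is the common reporter for exit from the naive state.

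Levels are log2 intensities after background correction and quantile normalization of the 30 arrays. A change is the difference of 2 condition means on that scale, tested with limma. A gene was called when its adjusted p lay under 0.05 (Benjamini-Hochberg over the 15151 probes detected on at least 3 arrays) and the difference reached 1.5-fold, which is 0.58 on the log2 scale. The brightest probe stood for a gene. Levels of different probes are not compared with each other, since probes differ in efficiency. In such bulk samples, fewer cells that express a gene and less of its RNA per cell cannot be told apart.

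Between 11733 and 13685 probes were detected on an array, and replicate arrays correlated with r from 0.990 to 0.997. By overall brightness the arrays fell into 2 sets. The dimmest probe still detected read 12.9 to 20.9 in Bub1b_R and Ctrl_R (12 arrays), against 27.8 to 58.1 in the other clones (18 arrays). Changes on Dox withdrawal lie within a set, but a difference in level of Chek1_R, Ppm1g_R or Ppp2r1b_R from Ctrl_R crosses the sets, where set and clone cannot be told apart. The Ctrl_R sample records are also numbered apart from those of all other clones. The paper credits the Ctrl_R clone to earlier work and lists public array data among those it used. Whether the Ctrl_R arrays belong to those data, or were run apart, is not stated. A difference of Bub1b_R from Ctrl_R may therefore hold a batch too. Among the targeted mRNAs, Ppm1g changed by -1.25 on withdrawal in Ppm1g_R (limma, adjusted p = 4.5e-09), Bub1b by -0.14 in Bub1b_R (adjusted p = 0.217) and Ppp2r1b by 0.20 in Ppp2r1b_R (adjusted p = 0.365). Chek1 went against its label, since 3 of 3 arrays lacking Dox detected it and 0 of 3 with Dox did so (change 0.71, adjusted p = 0.00115). Without Dox, each target was set against its level in Ctrl_R. Chek1 was lower in Chek1_R by -1.07 (adjusted p = 3.06e-06), Ppm1g in Ppm1g_R by -1.74 (adjusted p = 5.66e-13) and Bub1b in Bub1b_R by -0.67 (adjusted p = 1.05e-07), while Ppp2r1b in Ppp2r1b_R differed by -0.25 (adjusted p = 0.158). Only the Bub1b comparison lies within a set. Ppp2r1b read 6.29 without Dox and 6.09 with it in Ppp2r1b_R. In Chek1_R and Ppm1g_R, of the same set, it read 7.02 to 7.33, a difference that was not tested. Directions for Chek1_R are therefore those of the Chek1_R-labelled arrays. Chek1 read 6.01 there without Dox and 5.31, undetected, with Dox, against 7.08 and 7.18 in Ctrl_R. As labelled, 9 of 9 tested primitive streak genes rose there without Dox, as in Bub1b_R. Summed over the 10 genes of that list, intensity there was 603 to 626 with Dox and 6090 to 6590 without. In Ctrl_R, of the other set, it was 475 to 527 and 574 to 620. Whether the labels of these arrays are turned was not tested. The paper states that the Bub1b and Chek1 rescue vectors lack the shRNA target sequence, while those of Ppm1g and Ppp2r1b carry silent changes. Whether the probes also read the rescue copies is not known here. The ESC identity genes Pou5f1, Sox2, Utf1, Sall4, Lin28a and Tdgf1 were detected on all arrays of all 10 conditions.

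Upstream sequences are shown for 4 genes: Tcl1, Esrrb and Klf2, whose levels moved most nearly in parallel over the conditions, and Zfp42, which was called on withdrawal in Ppp2r1b_R alone. They are the 250 bases before the RefSeq start, in GRCm38.p6, 5′ to 3′ on the gene's strand. RefSeq entries were at hand for 7 of the 10 genes, at 9 starts, and Klf5, Tbx3 and Tcfcp2l1 had none. Capitals mark matches, on either strand, to 4 motifs: CCACCC (the CACCC box that KLF factors bind), AAGGTCA (an ESRRB core site), TTCNNNGAA (a STAT site) and ATTTGCAT (an octamer, which POU factors bind). No marked matches overlap.
Tcl1 (chr12:105222738-105222987, minus strand): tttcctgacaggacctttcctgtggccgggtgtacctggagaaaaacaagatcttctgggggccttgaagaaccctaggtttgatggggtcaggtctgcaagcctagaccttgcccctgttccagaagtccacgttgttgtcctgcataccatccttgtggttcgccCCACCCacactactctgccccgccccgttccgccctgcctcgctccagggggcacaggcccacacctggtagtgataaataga
Esrrb, first start (chr12:86360867-86361116, plus strand): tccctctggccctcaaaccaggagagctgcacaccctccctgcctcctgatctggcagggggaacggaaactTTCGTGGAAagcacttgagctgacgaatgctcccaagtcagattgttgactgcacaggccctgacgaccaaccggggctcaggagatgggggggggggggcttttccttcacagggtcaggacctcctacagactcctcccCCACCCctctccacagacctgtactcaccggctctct
Esrrb, second start (chr12:86421394-86421643, plus strand): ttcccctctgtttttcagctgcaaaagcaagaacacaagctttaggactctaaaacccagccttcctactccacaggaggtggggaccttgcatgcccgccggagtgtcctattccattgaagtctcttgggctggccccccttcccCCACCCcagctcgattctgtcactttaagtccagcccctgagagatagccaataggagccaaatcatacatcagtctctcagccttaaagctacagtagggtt
Klf2 (chr8:72318812-72319061, plus strand): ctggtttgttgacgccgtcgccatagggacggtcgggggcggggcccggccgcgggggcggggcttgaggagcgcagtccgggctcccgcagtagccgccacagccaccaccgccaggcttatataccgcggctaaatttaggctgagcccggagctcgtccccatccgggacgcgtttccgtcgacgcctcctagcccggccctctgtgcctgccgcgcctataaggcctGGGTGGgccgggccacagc
Zfp42 (chr8:43307010-43307259, minus strand): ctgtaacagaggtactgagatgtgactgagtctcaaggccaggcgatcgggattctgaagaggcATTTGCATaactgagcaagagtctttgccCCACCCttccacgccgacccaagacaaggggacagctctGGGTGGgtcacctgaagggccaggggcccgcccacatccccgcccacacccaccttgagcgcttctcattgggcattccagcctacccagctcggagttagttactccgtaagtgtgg
The CACCC box occurred upstream of 6 of the 7 genes, Klf4 being the one without it, and at 1 of 2 starts of Nanog. It lay 83 bases before the Tcl1 start, 37 and 103 before the Esrrb starts, 19 before the Klf2 start, and 157 and 118 before that of Zfp42. Of 32851 mouse upstream regions of this length, 28.1% held it. The STAT motif occurred upstream of the first Esrrb start (7.02% of all regions) and the octamer upstream of Zfp42 (1.60%). AAGGTCA, found in 4.08% of all regions, matched none of the 9 member regions. A match is a description of the letters and not evidence of binding.

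On Dox withdrawal, members were called lower in Ppp2r1b_R and in Bub1b_R, and which of these clones had more calls depended on the scaling of the arrays. In Ppp2r1b_R, 3 of 8 genes fell past both limits (Tcl1, Esrrb and Zfp42), where 2.05% of all probes were called lower. In Bub1b_R, 1 of 8 fell (Tcl1), where 2.67% of all probes did. None of the 8 was called lower on the Chek1_R-labelled arrays (4.77% of all probes), in Ppm1g_R (2.07%) or in Ctrl_R (0.396%). No member was called higher in any clone. With the arrays scaled to 1 median, the counts were 2 in Ppp2r1b_R (Tcl1 and Zfp42), 3 in Bub1b_R (Tcl1, Esrrb and Klf2) and 1 in Ctrl_R (Tbx3). The share of all probes called lower under that scaling is not given here, so these counts lack their background. Of all probes called in either direction under it, 76.6% were higher in Ppp2r1b_R, 56.2% in Bub1b_R and 68.1% in Ctrl_R. With limma's adjusted p alone, 6 genes were lower in Bub1b_R (12.8% of all probes), 3 on the Chek1_R-labelled arrays (16.5%), 3 in Ppm1g_R (11.7%), 7 in Ppp2r1b_R (12.9%) and 3 in Ctrl_R (3.48%). At an unadjusted p under 0.05 the counts lower were 6, 3, 3, 7 and 4 (17.9%, 20.7%, 17.3%, 18.6% and 10.5% of all probes), and the methods' t-test with both limits gave 1, 0, 0, 2 and 0. The median change of the 8 genes was -0.43 in Bub1b_R, 0.02 on the Chek1_R-labelled arrays, -0.12 in Ppm1g_R, -0.49 in Ppp2r1b_R and -0.17 in Ctrl_R, while the median of all tested probes lay between -0.02 and 0.00. In the mean of the 4 clones, 1 of 8 genes fell (Tcl1), where 1.37% of all probes did. Without the Chek1_R-labelled arrays the mean of 3 clones also had Tcl1 alone past both limits, and with the sign of those arrays turned the mean of 4 had 0, with Tcl1 at -0.46.

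**Figure D1:**
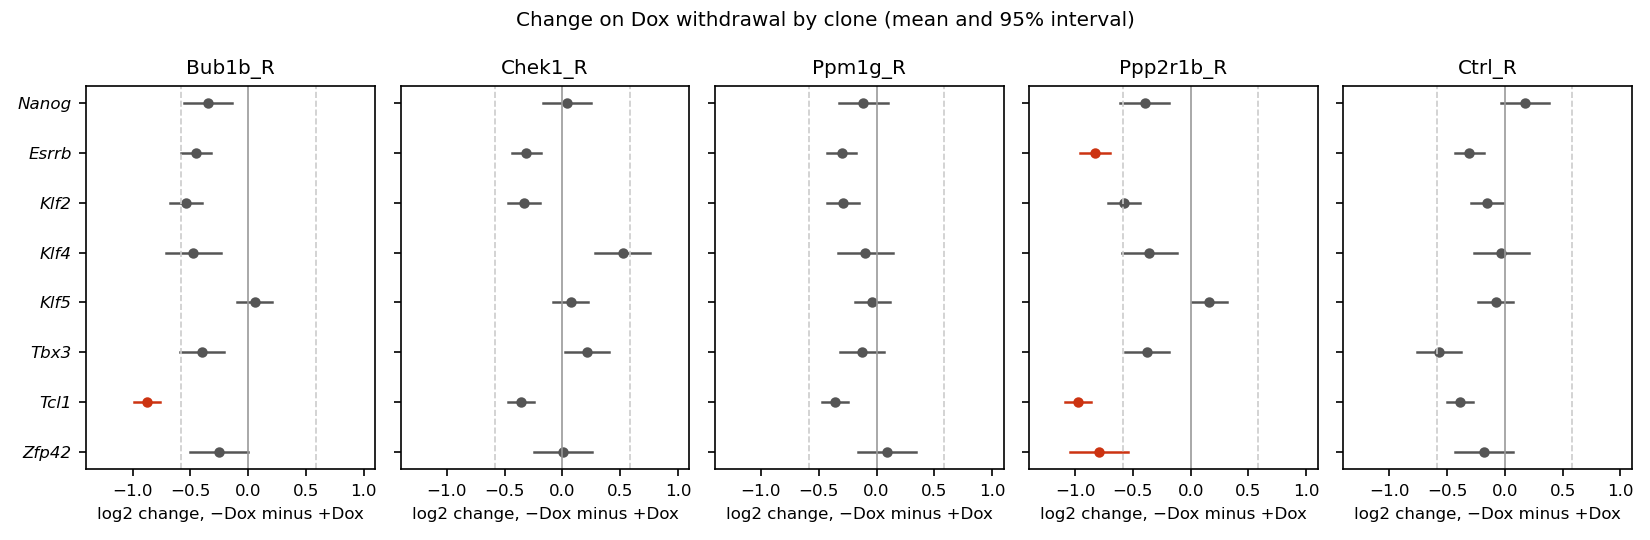
Change on Dox withdrawal (log2, without Dox minus with Dox) of 8 genes in each clone, with the 95% confidence interval from the limma fit of 30 arrays, 3 per condition; dashed lines mark 1.5-fold and red marks genes called changed. Tcl1 reached -0.87 in Bub1b_R and -0.97 in Ppp2r1b_R, and Klf4 lay at 0.52 on the Chek1_R-labelled arrays.

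Tcl1, the AKT co-activator, had the largest fall in both Bub1b_R and Ppp2r1b_R. In Bub1b_R its levels were 11.00, 10.94 and 10.89 with Dox and 10.06, 10.09 and 10.06 without. In Ppp2r1b_R they were 10.51, 10.60 and 10.54 with Dox and 9.54, 9.58 and 9.62 without. The groups did not overlap in either clone. The falls came to 0.87 (SE 0.05, 95% interval -0.99 to -0.76, adjusted p = 1.88e-11) and 0.97 (SE 0.05, -1.08 to -0.86, adjusted p = 4.98e-12). On the Chek1_R-labelled arrays the change was -0.36 (adjusted p = 1.1e-05), in Ppm1g_R -0.36 (adjusted p = 2.73e-05) and in Ctrl_R -0.39 (adjusted p = 6.81e-05), all short of 1.5-fold with the groups apart. The control clone without Dox, at 10.76, 10.73 and 10.87, thus also lay below its own arrays with Dox, at 11.20, 11.17 and 11.16. Relative to Ctrl_R, the change of Tcl1 was -0.49 in Bub1b_R (interval -0.64 to -0.33, adjusted p = 0.000131) and -0.58 in Ppp2r1b_R (-0.74 to -0.43, adjusted p = 2.94e-05), both just under the fold limit. It was 0.03 on the Chek1_R-labelled arrays (-0.13 to 0.19) and 0.03 in Ppm1g_R (-0.13 to 0.19). The change in Ppp2r1b_R differed from that on the Chek1_R-labelled arrays by 0.61 (adjusted p = 4.71e-06) and from that in Ppm1g_R by 0.61 (adjusted p = 7.69e-06). A second Tcl1 probe gave -0.85 in Bub1b_R and -0.97 in Ppp2r1b_R but -0.12 in Ctrl_R. With the mean of both probes, Tcl1 was called lower relative to Ctrl_R in 2 clones by limma. The values were -0.60 in Bub1b_R (adjusted p = 7.46e-05) and -0.71 in Ppp2r1b_R (adjusted p = 2.09e-05).

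Esrrb, an orphan nuclear receptor of the naive core, fell in Ppp2r1b_R and moved the same way elsewhere by less than 1.5-fold. In Ppp2r1b_R its levels were 13.16, 13.09 and 13.25 with Dox and 12.31, 12.42 and 12.28 without. No array without Dox reached those with it. The fall was 0.83 (SE 0.06, interval -0.96 to -0.70, adjusted p = 8.45e-10). With the arrays scaled to 1 median it was -0.53 and no longer called, and all tested probes had a median change of 0.09 under that scaling. The change was -0.45 in Bub1b_R (adjusted p = 5.5e-06), -0.31 on the Chek1_R-labelled arrays (adjusted p = 0.000331), -0.30 in Ppm1g_R (adjusted p = 0.000802) and -0.31 in Ctrl_R (adjusted p = 0.0029). In all 5 clones the groups did not overlap. Relative to Ctrl_R, Esrrb differed by -0.52 in Ppp2r1b_R (adjusted p = 0.000494), under the fold limit, by -0.15 in Bub1b_R (interval -0.33 to 0.03), by -0.01 on the Chek1_R-labelled arrays (-0.19 to 0.17) and by 0.01 in Ppm1g_R (-0.18 to 0.20).

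Klf2, a Krüppel-like factor that shares targets with Klf4 and Klf5, was not called in any clone but came close in Ppp2r1b_R. There it read 11.34, 11.45 and 11.21 with Dox and 10.67, 10.79 and 10.80 without, and the groups did not overlap. The change was -0.58 (SE 0.07, interval -0.72 to -0.44, adjusted p = 7.54e-07), short of the limit in the third decimal. Without background correction the change was -0.59 and called, as it was in 3 cases of leaving out 1 array. In Bub1b_R it was -0.54 (adjusted p = 1.26e-06), on the Chek1_R-labelled arrays -0.33 (adjusted p = 0.00036), in Ppm1g_R -0.29 (adjusted p = 0.00218) and in Ctrl_R -0.15 (adjusted p = 0.169). Relative to Ctrl_R the difference was -0.42 in Ppp2r1b_R (adjusted p = 0.00601) and -0.38 in Bub1b_R (adjusted p = 0.00735), neither reaching 1.5-fold.

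Zfp42, the REX1 gene, had its largest change in Ppp2r1b_R. Its levels there were 11.38, 11.29 and 10.94 with Dox and 10.43, 10.56 and 10.23 without. The lowest array with Dox still lay above the highest without. The fall was 0.80 (SE 0.12, interval -1.05 to -0.54, adjusted p = 3.74e-05), a call that the methods' t-test did not make. The change was -0.25 in Bub1b_R (interval -0.50 to 0.00, adjusted p = 0.145), 0.01 on the Chek1_R-labelled arrays (-0.25 to 0.26), 0.09 in Ppm1g_R (-0.16 to 0.34) and -0.18 in Ctrl_R (-0.44 to 0.07). By the brightest probe, Zfp42 was the 1 member called lower relative to Ctrl_R, by -0.61 in Ppp2r1b_R (SE 0.17, adjusted p = 0.0286). That call was lost with median scaling, where the value was -0.36, and on leaving out any of 6 arrays. The change in Ppp2r1b_R also differed from that on the Chek1_R-labelled arrays by 0.80 (adjusted p = 0.00224) and from that in Ppm1g_R by 0.88 (adjusted p = 0.0013).

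Nanog, the homeodomain factor that stabilizes self-renewal, was lower in Bub1b_R and Ppp2r1b_R by adjusted p, without reaching 1.5-fold. In Bub1b_R it read 12.73, 12.67 and 12.49 with Dox and 12.33, 12.39 and 12.14 without. In Ppp2r1b_R it read 12.80, 12.79 and 13.12 with Dox and 12.65, 12.32 and 12.54 without. Neither pair of groups overlapped. The changes were -0.35 (interval -0.56 to -0.14, adjusted p = 0.0132) and -0.40 (-0.61 to -0.19, adjusted p = 0.00502). They were 0.04 on the Chek1_R-labelled arrays (-0.17 to 0.25), -0.11 in Ppm1g_R (-0.32 to 0.10) and 0.17 in Ctrl_R (-0.04 to 0.38). Relative to Ctrl_R, Nanog differed by -0.52 in Bub1b_R (adjusted p = 0.0172) and by -0.57 in Ppp2r1b_R (adjusted p = 0.014), both under the fold limit.

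Klf4, a LIF-responsive Krüppel-like factor, had opposite signs in Bub1b_R and on the Chek1_R-labelled arrays, where Chek1 itself went against its label. On the Chek1_R-labelled arrays it read 9.26, 9.16 and 9.37 with Dox and 9.74, 10.00 and 9.64 without, so that every array without Dox was the higher. In Bub1b_R it read 9.23, 9.09 and 8.79 with Dox and 8.69, 8.60 and 8.39 without, so that every array without Dox was the lower. The changes were 0.52 (SE 0.12, interval 0.29 to 0.76, adjusted p = 0.000978) and -0.48 (SE 0.12, -0.71 to -0.24, adjusted p = 0.00321), each short of 1.5-fold. They differed from each other by -1.001 (adjusted p = 0.000266), which passed both limits. With the sign of the Chek1_R-labelled arrays turned, their change would be -0.52 and the difference from Bub1b_R 0.05 (adjusted p = 0.849). In Ppp2r1b_R the change was -0.36 (adjusted p = 0.0245), in Ppm1g_R -0.10 (adjusted p = 0.603) and in Ctrl_R -0.03 (adjusted p = 0.908). The change on the Chek1_R-labelled arrays also exceeded that in Ppm1g_R by 0.62 (adjusted p = 0.0111) and that in Ppp2r1b_R by 0.88 (adjusted p = 0.000555), and neither difference was called with the sign turned (-0.43 and -0.17). The other 2 Klf4 probes gave 0.40 and 0.23 on the Chek1_R-labelled arrays, and -0.28 and -0.40 in Bub1b_R.

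Klf5, the third Krüppel-like factor of the group, changed least. Its changes were 0.06 in Bub1b_R (interval -0.09 to 0.21), 0.07 on the Chek1_R-labelled arrays (-0.08 to 0.22), -0.04 in Ppm1g_R (-0.19 to 0.11), 0.16 in Ppp2r1b_R (0.01 to 0.31, adjusted p = 0.116) and -0.08 in Ctrl_R (-0.23 to 0.07). In Ppp2r1b_R its 3 arrays without Dox, at 11.95, 12.04 and 11.92, all lay above those with Dox, at 11.85, 11.89 and 11.69. In the other 4 clones the groups overlapped.

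Tbx3, a T-box factor downstream of LIF and PI3K signalling, had its largest withdrawal change in the control clone. In Ctrl_R it read 9.35, 9.50 and 9.48 with Dox and 8.94, 8.74 and 8.93 without, with no overlap. The change was -0.57 (SE 0.09, interval -0.76 to -0.38, adjusted p = 0.000405), just under 1.5-fold. A second, dimmer Tbx3 probe, detected on 29 of 30 arrays, gave 0.02 in Ctrl_R. With the brightest probe the change was -0.40 in Bub1b_R (adjusted p = 0.00198), -0.38 in Ppp2r1b_R (adjusted p = 0.0037), -0.13 in Ppm1g_R (adjusted p = 0.348) and 0.21 on the Chek1_R-labelled arrays (adjusted p = 0.0841). The second probe gave -0.07 in Bub1b_R and 0.35 in Ppp2r1b_R, the latter opposite in sign to the first. Relative to Ctrl_R, Tbx3 was the 1 member called higher, by 0.78 on the Chek1_R-labelled arrays (SE 0.13, interval 0.51 to 1.05, adjusted p = 0.000105). With the mean of both probes that value was 0.49, and with the sign of those arrays turned 0.36, neither of them called. The change on the Chek1_R-labelled arrays also differed from that in Bub1b_R by 0.62 in size (Bub1b_R minus Chek1_R -0.62, adjusted p = 0.00403) and from that in Ppp2r1b_R by 0.59 (adjusted p = 0.00277).

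Nr0b1, which encodes the nuclear receptor DAX1, stayed at background. The intensity of its probe lay between -22.9 and 11.5, and the detection p between 0.170 and 0.975. No level or change of Nr0b1 is given, and a probe without signal does not show that the gene was silent.

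Counting members called against Ctrl_R's own withdrawal change, in either direction, gave 0 of 8 in Bub1b_R (5.15% of all probes), 1 on the Chek1_R-labelled arrays (Tbx3, 8.99%), 0 in Ppm1g_R (5.27%) and 1 in Ppp2r1b_R (Zfp42, 3.28%). These comparisons share the Ctrl_R arrays. At an unadjusted p under 0.05, limma gave 4 lower in Bub1b_R (25.5% of all probes in either direction), 2 higher on the Chek1_R-labelled arrays (29.4%), 1 higher in Ppm1g_R (25.4%), and 5 lower and 1 higher in Ppp2r1b_R (22.8%). With the sign of the Chek1_R-labelled arrays turned, 2 members were called higher there (Esrrb by 0.62 and Tcl1 by 0.75) and Tbx3 was not.

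Directly compared with each other, the 4 targeted clones differed in the withdrawal change of 6 of 8 genes (F-test in limma, adjusted p under 0.05), where 24.0% of all probes did. The adjusted p was 5.26e-07 for Tcl1, 0.000196 for Esrrb, 0.000288 for Klf4, 0.00182 for Zfp42, 0.00299 for Tbx3 and 0.0424 for Klf2. It was 0.0648 for Nanog and 0.487 for Klf5. With median scaling 3 of the 8 passed, and with the sign of the Chek1_R-labelled arrays turned 4. Of the 6 pairs of clones, the Chek1_R-labelled arrays against Ppp2r1b_R differed in 4 genes (Klf4, Tbx3, Tcl1 and Zfp42, where 6.40% of all probes differed). Bub1b_R against the Chek1_R-labelled arrays differed in 2 (Klf4 and Tbx3, 2.92%), Ppm1g_R against Ppp2r1b_R in 2 (Tcl1 and Zfp42, 5.12%), and the Chek1_R-labelled arrays against Ppm1g_R in 1 (Klf4, 6.08%). Bub1b_R against Ppm1g_R differed in 0 (1.95%, with 4 at an unadjusted p under 0.05, as had 17.1% of all probes) and Bub1b_R against Ppp2r1b_R in 0 (2.47%, with 2, as had 21.1%). With the sign turned, the Chek1_R-labelled arrays differed from Bub1b_R in 3 genes, from Ppm1g_R in 3 and from Ppp2r1b_R in 4, with Tcl1, Esrrb and Klf2 in each.

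**Figure D2:**
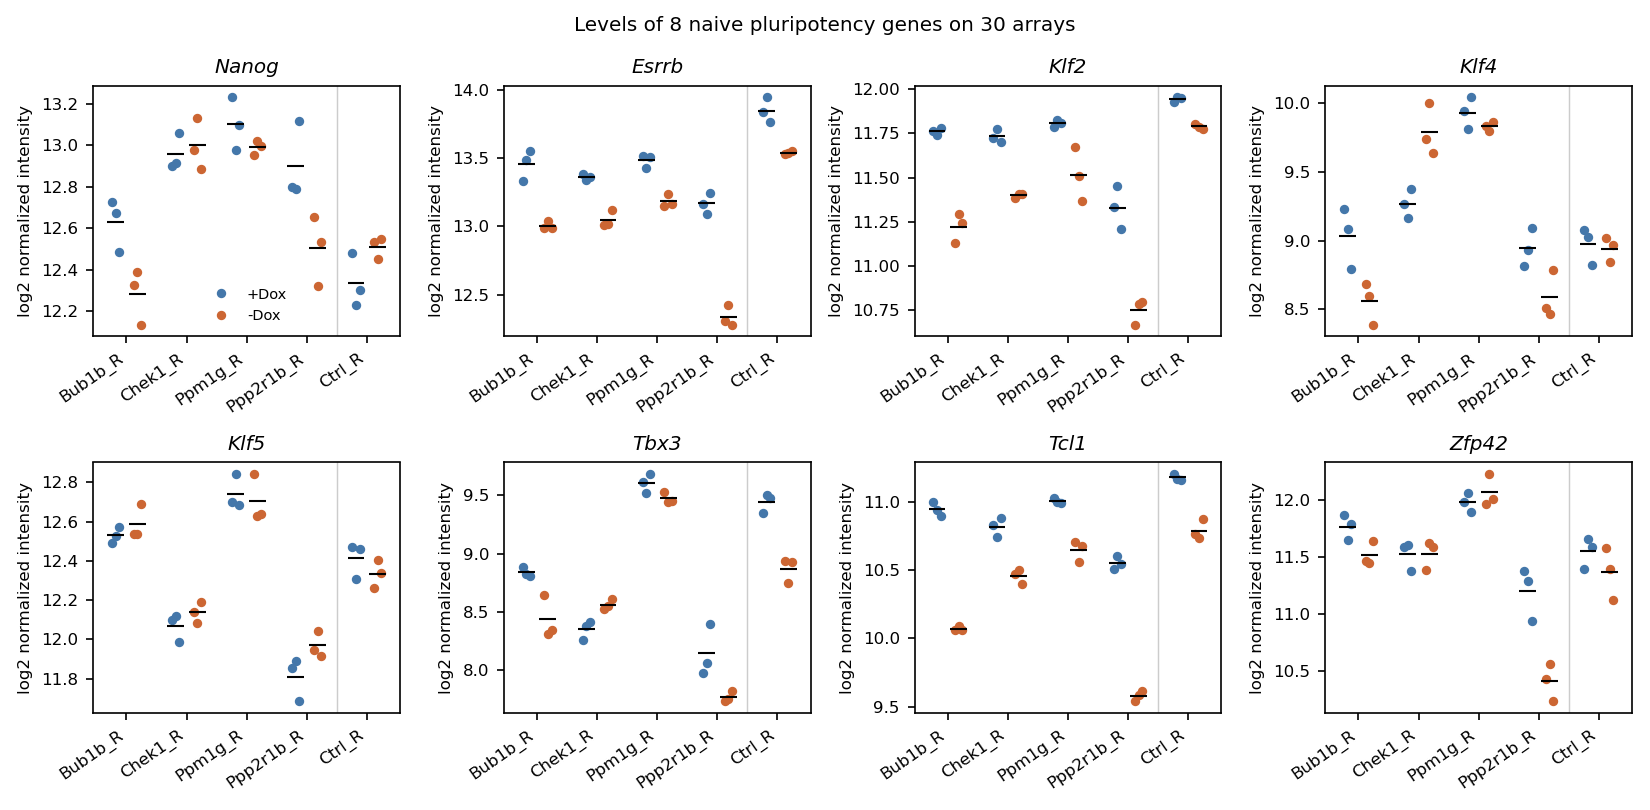
Level of 8 genes (log2 normalized intensity of the brightest probe) on each of 30 arrays, by clone and Dox; points are arrays and bars the mean of 3, and the grey line sets off Ctrl_R. The vertical axes differ between genes and do not start at 0, and Tcl1 ranges from 9.58 in Ppp2r1b_R without Dox to 11.18 in Ctrl_R with Dox.

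Ordered over the 10 conditions, Tcl1, Esrrb and Klf2 shared both ends: the highest mean in Ctrl_R with Dox and the lowest in Ppp2r1b_R without. For Tcl1 these were 11.18 ± 0.02 and 9.58 ± 0.04 (SD, n = 3), for Esrrb 13.85 ± 0.09 and 12.34 ± 0.07, and for Klf2 11.94 ± 0.01 and 10.75 ± 0.07. Both ends of these 3 orders stood clear of their neighbours. Tcl1 had the sharpest order, in which the ranges of 3 of 9 neighbouring conditions overlapped. These were Ppm1g_R and Bub1b_R with Dox, the Chek1_R-labelled arrays with Dox and Ctrl_R without, and Ppm1g_R without and Ppp2r1b_R with Dox.

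For every gene but Tcl1 most neighbours overlapped. The counts were 5 of 9 for Esrrb, 6 for Klf2, 8 for Nanog, 7 for Klf4, 7 for Zfp42, 6 for Tbx3 and 6 for Klf5. Nanog, Klf4, Klf5 and Tbx3 were highest in Ppm1g_R with Dox, at 13.10 ± 0.13, 9.93 ± 0.12, 12.74 ± 0.09 and 9.61 ± 0.08. Zfp42 was highest in Ppm1g_R without Dox, at 12.07 ± 0.14, which overlapped the same clone with Dox at 11.98 ± 0.08. Zfp42 and Tbx3 were lowest in Ppp2r1b_R without Dox, at 10.41 ± 0.16 and 7.77 ± 0.05, each clear of its neighbour. Nanog and Klf4 were lowest in Bub1b_R without Dox, at 12.28 ± 0.13 and 8.56 ± 0.15, and both overlapped the next condition. These orders run across the 2 array sets.

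After the mean of each array set was taken out, Tcl1, Esrrb and Klf2 followed each other most closely, with r = 0.98 for each pair over 10 condition means. For Tcl1 the nearest genes on the array were Esrrb, Klf2 and Nanogpd, a Nanog pseudogene. Klf2 was nearest to Mthfd1 (r = 0.98) and Zfp42 to Bop1, Trp53 and Fbxo42 (r = 0.97 each). Klf4 was nearest to Golph3l, Klf5 to Fntb, Tbx3 to Rrs1 and Nanog to Akap8, the last with the lowest such value at r = 0.93. Over the 28 pairs of the 8 genes r ran from 0.29 to 0.98, with a median of 0.74. The points share clones and arrays, so these values describe the conditions and carry no test.

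Against Ctrl_R without Dox, 5 of 8 genes were lower in Ppp2r1b_R (Esrrb, Klf2, Tbx3, Tcl1 and Zfp42), where 33.7% of all probes were called in either direction. The differences were -1.20 for Esrrb (adjusted p = 3.87e-14), -1.04 for Klf2 (adjusted p = 1.98e-12), -1.10 for Tbx3 (adjusted p = 2.66e-10), -1.21 for Tcl1 (adjusted p = 2.98e-15) and -0.96 for Zfp42 (adjusted p = 2.71e-07). In Bub1b_R, the clone in the same array set as Ctrl_R, 1 of 8 was lower (Tcl1, by -0.72, adjusted p = 5.2e-11), where 22.6% of all probes were called. On the Chek1_R-labelled arrays, Klf4 alone was called, higher by 0.85 (28.8% of all probes). In Ppm1g_R, Klf4, Zfp42 and Tbx3 were called higher, by 0.89, 0.70 and 0.61 (33.5% of all probes).

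Differences from Ctrl_R were also present before Dox was withdrawn. With Dox, 5 of 8 genes were lower in Ppp2r1b_R than in Ctrl_R (28.3% of all probes): Tbx3 by -1.30, Esrrb by -0.68, Tcl1 by -0.62, Klf2 by -0.61 and Klf5 by -0.61. In Bub1b_R, Tbx3 was lower by -0.60 (12.7% of all probes). On the Chek1_R-labelled arrays, Tbx3 was lower by -1.09 and Nanog higher by 0.62 (17.6%). In Ppm1g_R, Klf4 and Nanog were higher, by 0.95 and 0.77 (29.1%).

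Some of these differences across the array sets depended on how the arrays were scaled. Of the 18 called, 3 changed sign with each array scaled to its median, and 11 were still called in the same direction, among them the 10 in Ppp2r1b_R. With each array scaled to its median, the median difference of all tested probes lay at -0.24 to -0.43 in the 6 comparisons of the other set with Ctrl_R, and at 0.03 in both comparisons of Bub1b_R. The share of called probes that were higher moved with it, from between 49.1% and 55.5% to between 16.1% and 26.7%. In median, the 8 members moved further than all probes in these comparisons. In Ppm1g_R without Dox, their median went from 0.42 to -0.73, while all probes stood at -0.34, so that 3 members lay above all probes and 5 below. Zfp42 in Ppm1g_R without Dox went from 0.70 to -0.25, and Nanog with Dox from 0.77 to -0.30. Nanog on the Chek1_R-labelled arrays with Dox went from 0.62 to -0.17. In Ppm1g_R both genes then lay close to all probes, at 0.09 and 0.01 above them. The 8 members in Ppp2r1b_R all lay below all probes under this scaling, both with and without Dox, with medians of -1.60 and -1.56. Klf4 in Ppm1g_R kept its sign, at 0.44 without Dox and 0.57 with Dox, but was no longer called. It then lay 0.77 and 0.87 above all probes.

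**Figure D3:**
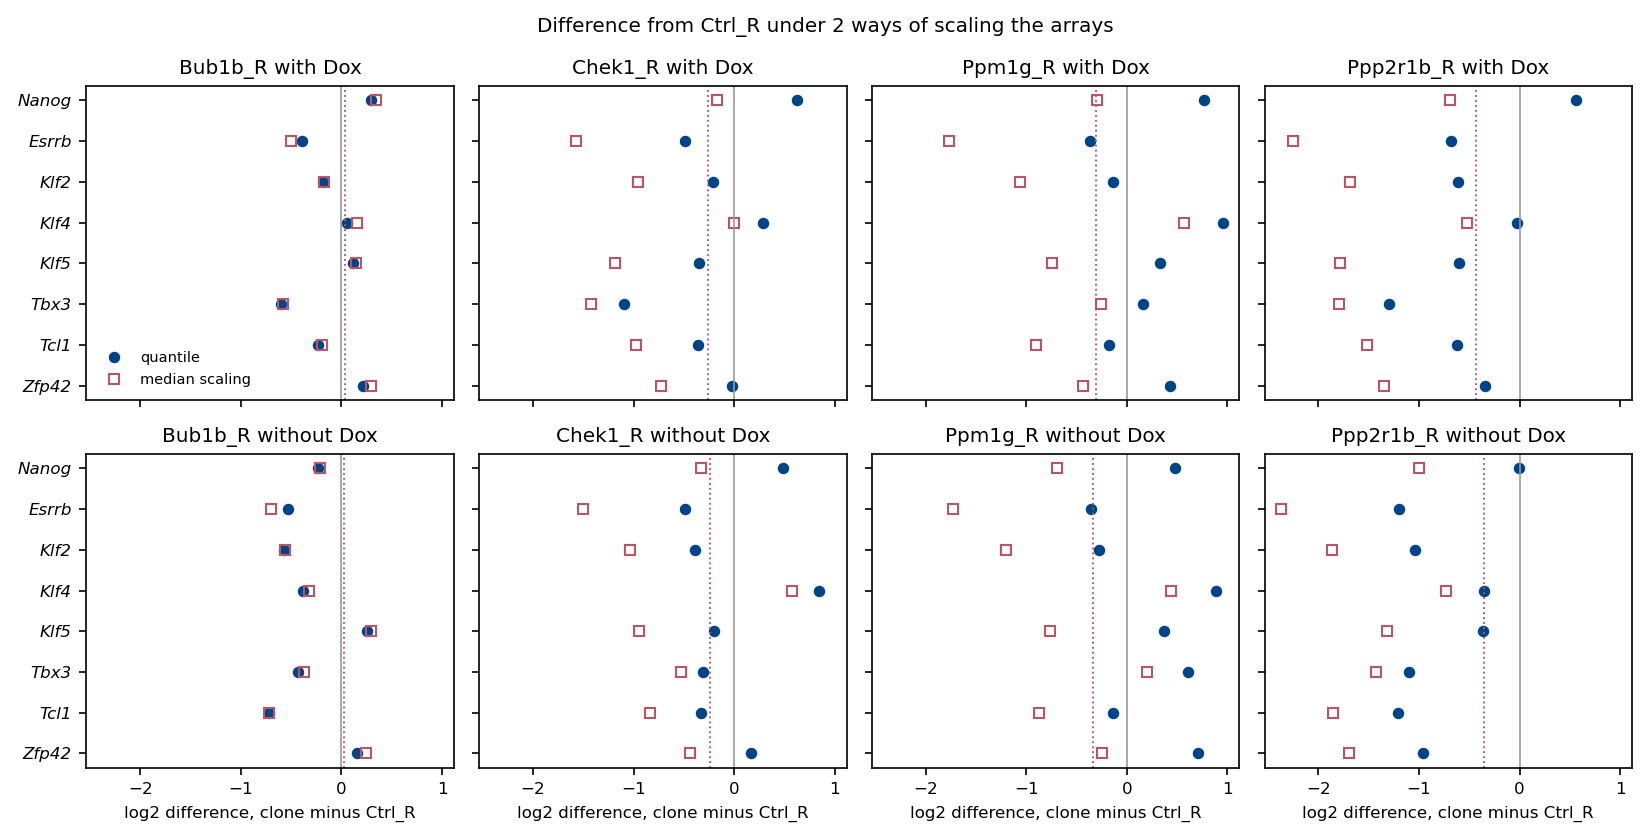
Difference of each clone from Ctrl_R (log2, horizontal axis) for 8 genes, with Dox in the upper row and without in the lower, after quantile normalization (filled circles) and after median scaling (open squares); the dotted line is the median of all tested probes under median scaling. Circles and squares nearly coincide for Bub1b_R and lie apart for the other clones, as for Zfp42 in Ppm1g_R without Dox (0.70 and -0.25).

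Probes of one gene also disagreed across the sets. In Ppm1g_R without Dox, the brightest Klf4 probe differed from Ctrl_R by 0.89, and the other probes by -0.23 and -0.05. On the Chek1_R-labelled arrays the values were 0.85, -0.02 and -0.16, and in Ppp2r1b_R -0.35, -1.23 and -1.32. In Bub1b_R, within the set of Ctrl_R, they were -0.38, -0.21 and -0.45. Both Tcl1 probes lay below Ctrl_R in all 4 clones, by -0.14 and -0.87 in Ppm1g_R and by -1.21 and -2.19 in Ppp2r1b_R. The Tbx3 probes gave 0.61 and -0.22 in Ppm1g_R. Within a clone, the 3 Klf4 probes and the 2 Tcl1 probes gave the same sign of change on withdrawal in Bub1b_R, Ppp2r1b_R and the Chek1_R-labelled arrays.

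**Figure D4:**
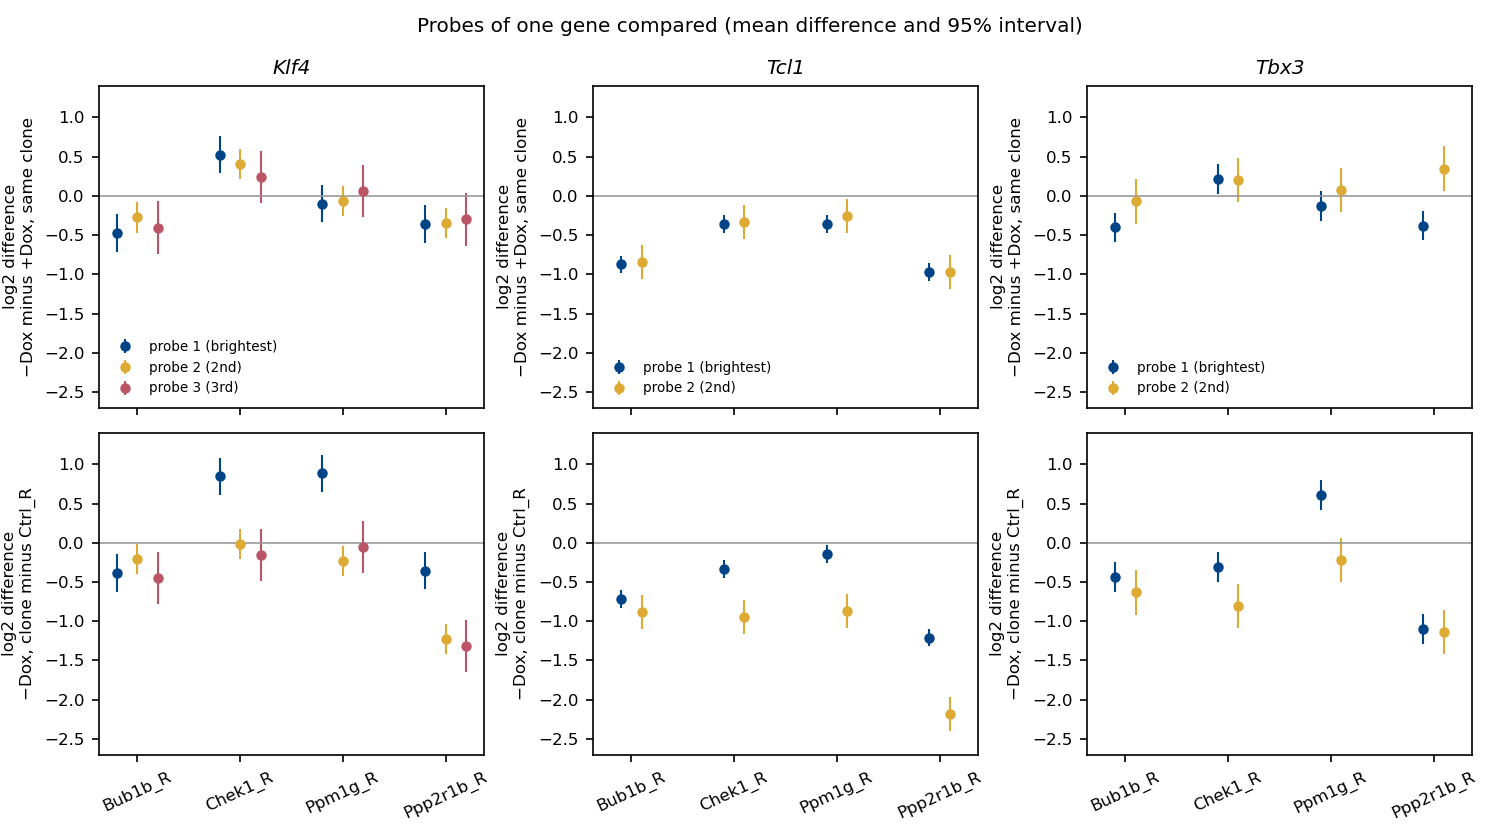
Each probe of Klf4, Tcl1 and Tbx3: change on Dox withdrawal in a clone (upper row) and difference of the clone from Ctrl_R without Dox (lower row), as log2 means with 95% confidence intervals (3 arrays per condition). For Klf4 in Ppm1g_R the probes lie together in the upper row and apart in the lower (0.89, -0.23 and -0.05).

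The wider naive programme was read from a list of 18 further genes, of which 15 were on the array and 14 tested. In Bub1b_R, 3 fell (Fgf4, Pecam1 and Mybl2), where 2.67% of all probes were called lower. In Ppm1g_R 1 fell (Fgf4, 2.07% of all probes) and in Ctrl_R 1 (Gbx2, 0.396%). On the Chek1_R-labelled arrays, Fgf4 and Pecam1 fell (4.77%) while Gbx2 and Tdh rose. Of all probes called there in either direction, 48.5% were higher. In Ppp2r1b_R, Dppa3, Gbx2 and Tdh fell (2.05%). Fgf4, the growth factor through which ESCs drive their own ERK signalling, changed by -0.96 in Bub1b_R, -0.91 on the Chek1_R-labelled arrays and -0.75 in Ppm1g_R, by -0.19 in Ppp2r1b_R (adjusted p = 0.156) and by 0.06 in Ctrl_R (adjusted p = 0.761). Gbx2, a homeobox gene downstream of STAT3, changed by 0.73 on the Chek1_R-labelled arrays, -1.08 in Ppp2r1b_R and -0.60 in Ctrl_R. Dppa3, Gbx2 and Tdh are named because of their values. The list's median change was -0.37 in Bub1b_R, -0.37 on the Chek1_R-labelled arrays, -0.16 in Ppm1g_R, -0.41 in Ppp2r1b_R and -0.03 in Ctrl_R.

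Of the 6 ESC identity genes, Utf1 was the 1 that was called, and their median change was -0.24 in Bub1b_R, -0.25 on the Chek1_R-labelled arrays, -0.12 in Ppm1g_R, -0.44 in Ppp2r1b_R and -0.15 in Ctrl_R. Utf1, a chromatin-bound factor of undifferentiated ESCs, fell by 0.63 in Bub1b_R, by 0.80 on the Chek1_R-labelled arrays and by 0.68 in Ppp2r1b_R, and stood at 0.02 in Ctrl_R. Pou5f1 changed by -0.16, -0.31, -0.48, -0.53 and -0.19 in Bub1b_R, the Chek1_R-labelled arrays, Ppm1g_R, Ppp2r1b_R and Ctrl_R, never past 1.5-fold. Among 13 genes of the LIF and STAT3 pathway, Jak2 and Junb rose in Ppp2r1b_R, by 0.59 and 0.67, and no other call was made in any clone. Stat3 itself, which carries the LIF signal to Klf4, changed by -0.36 in Ppm1g_R (adjusted p = 0.0021) and by 0.11 in Ppp2r1b_R (adjusted p = 0.352). Socs3, its feedback inhibitor, changed by -0.50 in Ppm1g_R (adjusted p = 3.08e-07), -0.44 on the Chek1_R-labelled arrays (adjusted p = 6.72e-07), -0.39 in Ctrl_R (adjusted p = 6.83e-05), -0.11 in Bub1b_R (adjusted p = 0.173) and 0.03 in Ppp2r1b_R (adjusted p = 0.705).

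Genes of later stages moved on the same arrays. Over all probes, 2.67% were called lower in Bub1b_R, 4.77% on the Chek1_R-labelled arrays, 2.07% in Ppm1g_R, 2.05% in Ppp2r1b_R and 0.396% in Ctrl_R. Of all probes called in either direction, 52.4%, 48.5%, 52.7%, 57.5% and 64.1% were higher, in the same order. These shares also stand beside the calls among ESC identity and LIF and STAT3 genes above, and the counts of cell type markers below. Of 9 tested primitive streak genes, 9 rose in Bub1b_R, 9 on the Chek1_R-labelled arrays, 7 in Ppm1g_R, 4 in Ppp2r1b_R and 2 in Ctrl_R (T and Fgf8). T, the mesoderm factor Brachyury, rose by 2.31, 4.44, 1.05, 1.90 and 0.75 in these 5 clones. Evx1, a homeobox gene of the streak, rose by 2.38, 4.10, 1.60 and 1.54 in the 4 targeted clones, and Mixl1, a homeobox gene of nascent mesoderm, by 3.24 in Bub1b_R. Mixl1 was also called on the Chek1_R-labelled arrays and in Ppm1g_R, but no array with Dox detected it there, so no size is given. The 4 calls in Ppp2r1b_R include Eomes, which no array of that clone detected. Of 7 tested formative and primed genes, 2 rose in Bub1b_R, 4 on the Chek1_R-labelled arrays, 1 in Ppm1g_R, 1 in Ppp2r1b_R and 0 in Ctrl_R. Otx2, which drives the formative state and is named because of its value, fell by 0.87 on the Chek1_R-labelled arrays and by 0.77 in Ppm1g_R. Fgf5, the marker of the formative epiblast, rose by 0.95 in Bub1b_R and by 2.42 on the Chek1_R-labelled arrays. Wnt8a rose by 1.46 on the Chek1_R-labelled arrays, 1.15 in Ppm1g_R and 0.64 in Ppp2r1b_R, and Lef1 by 1.30 in Bub1b_R.

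Markers of other cell types were read beside these changes. Of 12 fibroblast feeder markers, Col1a2, Lum and Postn were detected on no array of any condition. The summed intensity of the feeder list was 12000 to 12700 without Dox and 10000 to 11000 with Dox in Bub1b_R, and 9360 to 10100 and 6350 to 6780 in Ppm1g_R. It was 7680 to 8110 without and 9420 to 10200 with Dox on the Chek1_R-labelled arrays, 6880 to 7510 and 7470 to 7930 in Ppp2r1b_R, and 6140 to 6290 and 6500 to 6980 in Ctrl_R. The sum was thus higher without Dox in Bub1b_R and Ppm1g_R, lower on the Chek1_R-labelled arrays and in Ctrl_R, and overlapped in Ppp2r1b_R. Single markers did not all follow it, so the sum is not read as feeder content. On the Chek1_R-labelled arrays 3 of 9 tested markers were called higher and 1 lower. Acta2 changed by 0.33, 0.72, -0.37, -0.21 and -0.35 in Bub1b_R, Ppm1g_R, the Chek1_R-labelled arrays, Ctrl_R and Ppp2r1b_R. Of 9 tested feeder markers, Dcn was called higher in the 4 targeted clones, Col1a1 in 3 of them, Pdgfrb on the Chek1_R-labelled arrays and in Ppp2r1b_R, and Acta2 in Ppm1g_R. Thy1 was called lower on the Chek1_R-labelled arrays (-0.81) and in Ppm1g_R (-0.61). In the trophoblast list, Elf5 and Hand1 were detected in no condition, while Cdx2 and Eomes, which the streak also expresses, were called higher in the 4 targeted clones, Eomes in Ppp2r1b_R again without detection. In the primitive endoderm list, 4 of 7 tested genes rose in Bub1b_R (Gata6, Sox17, Sox7 and Pdgfra) and 1 in each of the other targeted clones (Pdgfra), while Amn fell by 1.52 on the Chek1_R-labelled arrays. The part of such cells in the members' changes was not tested.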

How the data were processed

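RNA of 5 Ainv15 rescue clones (mouse ESCs), with Dox and after 5 days without it, was hybridized to Illumina WG8-V2 arrays (3 per condition, 30 in all). The authors deposited 1 intensity for each of 25697 probes on each array, after background subtraction but before any normalization, and the submitters' processing notes name lumi. They also deposited each probe's detection p-value. Some of these cells held spreadsheet dates, 46 on Ppm1g_R without Dox replicate 2 and 14 on Bub1b_R without Dox replicate 2. Conversion restored 28 and 6, and the remaining 18 and 8 took the value of the probe with the nearest signal. The methods refer to earlier work for normalization and thresholds.

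With limma 3.58.1 and statmod 1.5.0 (R 4.3.3), intensities were normalized with neqc (offset 16, quantiles, log2). A probe was kept where 3 or more arrays gave it a detection p below 0.05 (15151 probes of 11177 genes). A single limma fit took the means of 10 conditions (20 residual and 3.38 prior degrees of freedom), with Benjamini-Hochberg adjustment over all kept probes. Contrasts were withdrawal in each clone, the same minus that in Ctrl_R, the mean and pairwise differences of 4 clones, and each clone against Ctrl_R with and without Dox. Samples were grouped by their titles. The number of arrays limits the precision.

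Alternatives were no background correction, median scaling, an offset of 50, and no or a stricter detection filter. Limits of none and 2-fold, a fit of only the arrays compared, and averaging a gene's probes were also run. So were a t-test, replicate numbers as a block, and leaving out each array. The methods name t-tests for the experiments in general and refer to earlier work for the arrays. Normalizing each array set apart, a mean without the Chek1_R-labelled arrays and turning the sign of their withdrawal change were chosen after seeing the data.

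All members are named. From the other lists, the rule took up to 3 genes with the largest mean change over the 4 clones among those called in at least 1 clone, and for each member the 3 genes with the highest r. Dppa3, Gbx2, Tdh, Otx2, Pou5f1, Stat3, Socs3 and the markers of other cell types are named outside it, after their values were seen. Members and lists were chosen with earlier results of these data known. Whether replicate numbers pair arrays was checked from the deviations from the condition means (r between -0.08 and 0.13 per array and its partner), and they were not taken as pairs. Scripts were tested on simulated data. Upstream sequences came from RefSeq (GRCm38.p6).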

Additional observations from a re-analysis of the deposited data

Results flagged for a closer look

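Several members differed in their change on Dox withdrawal between clones, by a test of the difference itself in the limma fit. For Klf4, Bub1b_R minus the Chek1_R-labelled arrays was -1.001 on the log2 scale (adjusted p = 0.000266), those arrays minus Ppm1g_R 0.62 (adjusted p = 0.0111) and minus Ppp2r1b_R 0.88 (adjusted p = 0.000555). For Tbx3, the Chek1_R-labelled arrays minus Ctrl_R was 0.78 (adjusted p = 0.000105), Bub1b_R minus the Chek1_R-labelled arrays -0.62 (adjusted p = 0.00403) and the latter minus Ppp2r1b_R 0.59 (adjusted p = 0.00277). All 6 of these differences involve the arrays on which Chek1 itself went against its label, and none of the 6 was called with the sign of those arrays turned. With the sign turned, other differences were called. Relative to Ctrl_R these were Esrrb and Tcl1, both higher. Against Bub1b_R, Ppm1g_R and Ppp2r1b_R there were 3, 3 and 4 called genes, where there were 2, 1 and 4 as labelled. The turned sign is supposed, and was not tested. As labelled, 9 of 9 tested primitive streak genes rose without Dox on those arrays, as in Bub1b_R. For Tcl1, the Chek1_R-labelled arrays minus Ppp2r1b_R was 0.61 (adjusted p = 4.71e-06) and Ppm1g_R minus Ppp2r1b_R also 0.61 (adjusted p = 7.69e-06). For Zfp42, Ppp2r1b_R minus Ctrl_R was -0.61 (adjusted p = 0.0286), the Chek1_R-labelled arrays minus Ppp2r1b_R 0.80 (adjusted p = 0.00224) and Ppm1g_R minus Ppp2r1b_R 0.88 (adjusted p = 0.0013). Conditions of 3 arrays are too small to test single arrays for outliers.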

How the results depend on the processing

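The counts of members called moved mainly with the fold limit and the scaling. Without a fold limit, the counts lower on withdrawal were 6 in Bub1b_R, 3 on the Chek1_R-labelled arrays, 3 in Ppm1g_R, 7 in Ppp2r1b_R and 3 in Ctrl_R, with 1 higher on the Chek1_R-labelled arrays and 6 lower in the mean of the clones. Relative to Ctrl_R they were 3 lower in Bub1b_R, 2 higher on the Chek1_R-labelled arrays, 1 higher in Ppm1g_R and 5 lower in Ppp2r1b_R. Against Ctrl_R without Dox, they were 5 lower and 1 higher in Bub1b_R, 5 and 2 on the Chek1_R-labelled arrays, and 3 and 5 in Ppm1g_R. With Dox they were 4 and 1, 5 and 2, and 2 and 4 in the same order, and 1 higher in Ppp2r1b_R. At 2-fold, the counts that changed went to 0, except 4 and 1 lower in Ppp2r1b_R against Ctrl_R without and with Dox.

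With median scaling, 3 fell in Bub1b_R, 2 in Ppp2r1b_R and 1 in Ctrl_R on withdrawal, 0 in Ppp2r1b_R relative to Ctrl_R, and 3 differed among the clones. Against Ctrl_R without Dox it gave 2 lower in Bub1b_R, 4 lower and 0 higher on the Chek1_R-labelled arrays, 5 and 0 in Ppm1g_R, and 8 lower in Ppp2r1b_R. With Dox it gave 6 lower and 0 higher on the Chek1_R-labelled arrays, and 4 and 0 in Ppm1g_R. In Ppp2r1b_R it moved the share of called probes that were higher on withdrawal from 57.5% to 76.6%. It reversed 4 small changes: Nanog on the Chek1_R-labelled arrays (-6.67e-05), Zfp42 in Ppm1g_R (-0.046), and relative to Ctrl_R Esrrb on the Chek1_R-labelled arrays (0.073) and Klf5 in Ppm1g_R (-0.015).

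Without background correction, 1 fell in Ctrl_R and 2 in Ppp2r1b_R relative to it. An offset of 50 gave 0 in Bub1b_R with Dox, and a fit of only the arrays compared 0 in Ppp2r1b_R relative to Ctrl_R. Averaging a gene's probes gave, relative to Ctrl_R, 1 lower in Bub1b_R, 0 higher on the Chek1_R-labelled arrays and 2 lower in Ppp2r1b_R. Against Ctrl_R it gave 1 lower and 0 higher on the Chek1_R-labelled arrays and 1 higher in Ppm1g_R without Dox, and 0 lower in Bub1b_R and 1 higher in Ppm1g_R with Dox. It reversed, relative to Ctrl_R, Tcl1 on the Chek1_R-labelled arrays (-0.091), and Klf4 (0.00955) and Tcl1 (-0.049) in Ppm1g_R. With each array set normalized apart, 1 fell in Ctrl_R, and 3 were lower in Bub1b_R than in Ctrl_R without Dox. Why these values moved was not tested.

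Leaving out 1 array at a time, the counts on withdrawal ran from 1 to 2 lower in Bub1b_R (2 without its replicate 3 with Dox, where Klf4 stood at -0.60), 0 to 1 higher on the Chek1_R-labelled arrays (1 without replicate 3 without Dox, Klf4 at 0.60) and 0 to 1 lower in Ctrl_R (1 without replicate 1 with Dox or replicates 1 or 3 without, Tbx3 at -0.62, -0.60 and -0.60). Relative to Ctrl_R they ran from 0 to 1 lower in Bub1b_R (1 without its replicate 3 with Dox or Ctrl_R replicate 1 with Dox, Nanog at -0.59 each), 1 to 2 higher on the Chek1_R-labelled arrays, where Klf4 joined Tbx3 at 0.59 to 0.63 without replicate 3 with Dox, replicate 1 or 3 without, or Ctrl_R replicate 3 with or 1 without Dox, and 1 to 2 lower in Ppp2r1b_R, with 2 in 7 of the cases. There Zfp42 was not called without Ppp2r1b_R replicate 1 (-0.52) or 2 (-0.57) with Dox or 3 without (-0.52), nor without Ctrl_R replicate 1 with Dox (-0.54) or 1 (-0.50) or 2 (-0.60) without, while Tcl1 and Nanog came in at up to -0.61 and -0.65. Against Ctrl_R, the counts ran from 1 to 2 lower in Bub1b_R without Dox (2 without its replicate 2) and 0 to 1 with Dox (0 without Ctrl_R replicate 2 or 3). With Dox they ran from 0 to 1 higher on the Chek1_R-labelled arrays (0 without replicate 3 or Ctrl_R replicate 2), and 3 to 5 lower in Ppp2r1b_R (3 without its replicate 3) with 0 to 1 higher (1 without its replicate 1 or 2, or Ctrl_R replicate 1). Small values changed sign within ranges that span 0: on withdrawal Nanog (-0.025 to 0.098) and Zfp42 (-0.067 to 0.079) on the Chek1_R-labelled arrays, Klf5 in Ppm1g_R (-0.11 to 0.013) and Klf4 in Ctrl_R (-0.11 to 0.018), and relative to Ctrl_R Esrrb (-0.054 to 0.037) and Tcl1 (-0.0086 to 0.068) on the Chek1_R-labelled arrays, Esrrb (-0.043 to 0.047), Klf4 (-0.13 to 0.011), Klf5 (-0.027 to 0.095) and Tcl1 (-6.81e-05 to 0.076) in Ppm1g_R, and Zfp42 in Bub1b_R (-0.19 to 0.039).

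With the replicate numbers as a block, none of the 72 gene results changed its call and every count stayed within 1.5 times, such as 3 lower in Ppp2r1b_R on withdrawal. The numbers were not taken to pair the arrays. In the mean of 3 clones without the Chek1_R-labelled arrays, Tcl1 stood at -0.73 (adjusted p = 6.36e-15) and Klf4 at -0.31 (adjusted p = 0.000566). With the sign of those arrays turned, 0 members fell in the mean of 4. Single dim probes are limited by their signal over background. The second, dimmer Tbx3 probe gave other changes than the first. In Ctrl_R it was detected on 3 of 3 arrays with Dox and 3 of 3 without. Why the 2 probes differ was not tested.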
